A study of Mus musculus with 4 samples.

Results

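Amino-acid-stress tumour cells were the melanocytic tumour cells with the highest summed level of 10 stress response genes. The name is a label, and lack of amino acids as the source of the response was not tested. A barcode entered the gate when it held at least 8000 UMIs (unique molecular identifiers, each standing for 1 captured mRNA), 0.5 to 20% mitochondrial UMIs, at least 0.1% of UMIs from the 4 pigment genes Dct, Pmel, Mlana and Tyrp1, and no UMI of the leukocyte gene Ptprc. The score of a cell was the number of UMIs of Fgf21, Aldh1l2, Nupr1, Cth, Angptl6, Pck2, Chac1, Trib3, Asns and Ddit3 per 10000 UMIs. Members were the top 3% of the score over all libraries pooled, which gave 200 of 6658 gated cells, out of 7493 barcodes with at least 8000 UMIs. The other 6458 gated cells are called the other cells below. Since the score chose the members, their levels of the 10 genes are given as a description and were not tested against the other cells.

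The cells came from tumours of C57Bl6 mice 6 to 8 weeks old and were labelled as cancer cells. There were 2 Nanocapsule libraries, labelled as treated with nanocapsules, and 2 Control libraries. The series title names enzyme nanocapsules and the immunotherapy of cancer as its subject. The labels name neither the tumour line, any allele, the enzymes, the dose, nor the animals behind a library, so p-values measure the spread between these 4 libraries, which may be technical.

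When amino acids run short, or when unfolded proteins, mitochondrial faults or lack of haem burden a cell, sensor kinases phosphorylate the initiation factor eIF2. General protein synthesis then slows while the transcription factor ATF4 is made, and ATF4 with partners of the C/EBP family switches on genes for amino acid synthesis, uptake and tRNA charging. Fgf21 is an ATF4 target that encodes a secreted hormone, best known from liver and adipose tissue, where it signals through FGF receptors together with the co-receptor beta-Klotho. DDIT3 (also called CHOP), TRIB3 and CHAC1 belong to the later arm of the same response and are linked to cell death under lasting stress.

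Composite C/EBP-ATF4 elements were looked for as the letters TGATGNAA on either strand, so also TTNCATCA, in the RefSeq promoters of GRCm38.p6. These run from 250 bases before to 50 bases after a start site. Of the 10 score genes 8 had an entry, and 6 of them (75.0%) held a match, against 2.78% of the 11471 tested genes with an entry. Windows of 60 bases around a match are shown for 5 score genes, the ones that chose the cells, and for 3 genes outside the score that were higher in members, with the match in capitals, read 5′ to 3′ on the strand of the gene.
Fgf21 promoter: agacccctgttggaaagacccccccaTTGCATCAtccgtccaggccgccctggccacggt
Nupr1 promoter: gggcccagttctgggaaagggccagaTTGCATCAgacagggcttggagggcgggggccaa
Pck2 promoter: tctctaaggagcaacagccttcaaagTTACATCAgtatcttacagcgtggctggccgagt
Chac1 promoter: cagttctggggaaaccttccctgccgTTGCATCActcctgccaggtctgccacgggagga
Asns promoter: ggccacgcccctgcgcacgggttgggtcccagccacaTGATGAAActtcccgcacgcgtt
Atf3 promoter: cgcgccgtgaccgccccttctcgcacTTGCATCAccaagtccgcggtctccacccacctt
Slc7a11 promoter: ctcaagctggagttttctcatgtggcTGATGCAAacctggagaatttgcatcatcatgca
Pycr1 promoter: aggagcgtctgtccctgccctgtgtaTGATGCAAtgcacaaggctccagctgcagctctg
The Fgf21 window lies at chr7:45615596-45615655 (minus strand) and its match begins 139 bases before the start site. Nupr1 lies at chr7:126625547-126625606 (minus strand, 110 bases before the start), Pck2 at chr14:55540137-55540196 (plus, 103 bases), Chac1 at chr2:119351023-119351082 (plus, 193 bases) and Asns at chr6:7693210-7693269 (minus, 23 bases). Atf3 lies at chr1:191183410-191183469 (minus strand, 110 bases before the start), Slc7a11 at chr3:50443646-50443705 (minus, 66 bases) and Pycr1 at chr11:120643818-120643877 (minus, 103 bases). The Slc7a11 window also holds a further match, TTGCATCA, which begins 47 bases before the start and is left in lower case. The match in Trib3 began 15 bases after its start site, and the windows of Angptl6 and Ddit3 did not hold these letters. Of the other ATF4 and integrated stress targets on the list used below, 5 of 22 (22.7%) held a match, and most of the largest rises named below that had an entry did not. Over all 27025 genes of the promoter table, tested or not, the share was 4.51%. Among all tested genes that were higher in members, 5.37% of 1805 held a match, and 9.96% of 512 among those at least 2-fold higher, against 1.73% of 2202 among genes lower in members. A match describes the letters of the window and does not show that a factor bound there.

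The score had a median of 23.05 UMIs per 10000 in members and 2.20 in the other cells. It formed a continuous tail with no gap at the threshold: the lowest member had 17.77 and the highest other cell 17.73, while the highest score of all was 72.40. Membership is a range of the score, and whether the cells form a type of their own was not tested. Members had a UMI of a median of 9 of the 10 genes, against 5 in the other cells. When each cell was thinned to 8000 UMIs the medians were 7 and 1, and the top 3% of the thinned score held 161 of the 200 members (80.5%). Nupr1 was the score gene with the most UMIs in 67 members, Ddit3 in 37, Aldh1l2 in 36 and Asns in 31.

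**Figure D1:**
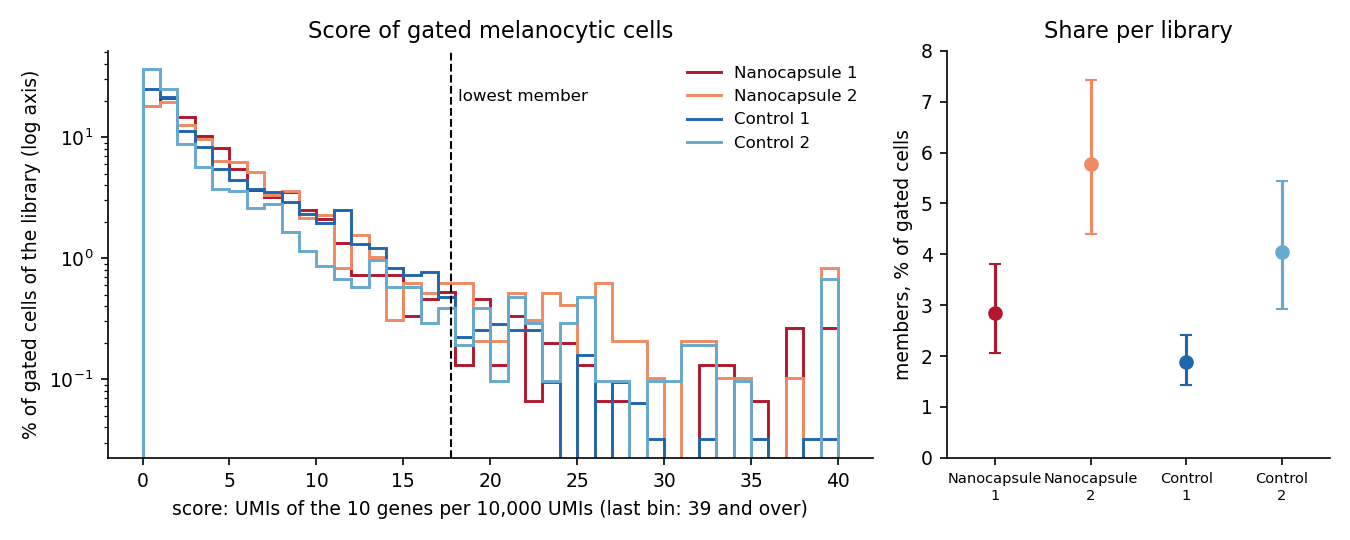
Left, the score (UMIs of the 10 genes per 10000 UMIs) of gated cells as percent of the gated cells of each library on a log axis; the dashed line is the lowest member at 17.77, and the last bin holds all scores of 39 and over. Right, members as percent of gated cells in each library with 95% Clopper-Pearson intervals, from 1.88% in Control 1 to 5.77% in Nanocapsule 2.

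The label names Fgf21, but only 94 of the 200 members (47.0%) had an Fgf21 UMI. The share was 48.8% in Nanocapsule 1, 58.9% in Nanocapsule 2, 23.7% in Control 1 and 61.9% in Control 2, and, with cells thinned to 8000 UMIs, 16.3%, 26.8%, 8.47% and 33.3% in the same libraries. Of the other cells 1.49% had one, which was 96 cells beside the 94 members. In Control 1, 35 other cells and 14 members had an Fgf21 UMI. Among 357 barcodes with a Ptprc UMI and little pigment RNA, which should lack the gene, 0 had one, which allows a share of up to 0.84%, at a median depth of 13827 UMIs. Fgf21 was concentrated in few cells: 35 members with at least 10 Fgf21 UMIs held 91.8% of the 1864 Fgf21 UMIs of members, the highest single cell had 211, and Control 1 had no member above 7. Members held 90.2% of all gated Fgf21 UMIs, and 80.2%, 93.6%, 40.5% and 94.4% in Nanocapsule 1, Nanocapsule 2, Control 1 and Control 2. Leaving Fgf21 out of the score kept 195 of the 200 members, so the cells were defined by the other 9 genes.

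Levels below are TMM-normalised CPM (UMI sums of each library and class scaled to a common total), in the order Nanocapsule 1, Nanocapsule 2, Control 1 and Control 2. Fgf21 stood at 101, 199.9, 13.2 and 203 CPM in members, against 0.617, 0.727, 0.366 and 0.532 CPM in the other cells. Members of Control 1 were far below those of the other 3 libraries, though still above its own other cells. Angptl6, a second secreted factor of the score, had 74.3, 45.9, 57.8 and 63.3 CPM in members, against 4.70, 4.02, 5.99 and 3.32 CPM in the other cells.

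Of the enzymes, Asns makes asparagine, Cth makes cysteine from cystathionine, Aldh1l2 is a mitochondrial folate enzyme and Pck2 is mitochondrial phosphoenolpyruvate carboxykinase. Aldh1l2 had 367, 352, 269.8 and 350.2 CPM in members, against 40.3, 38.0, 40.1 and 22.8 CPM in the other cells. Pck2 had 227, 244, 171 and 251 CPM in members and 32.8, 32.9, 34.2 and 23.3 CPM in the other cells. Cth averaged 114 CPM in members and 11.1 CPM in the other cells, and Asns, which was well detected in the other cells too, 393 and 101 CPM. None of these genes overlapped between the classes.

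Of the regulators, Nupr1 is a small stress-induced chromatin protein, Ddit3 a C/EBP family factor, Trib3 a pseudokinase that restrains ATF4 and AKT, and Chac1 degrades glutathione. Nupr1 had 582, 479.6, 446 and 525 CPM in members, against 52.6, 46.9, 46.6 and 30.9 CPM in the other cells. Ddit3, whose symbol covers 2 overlapping gene records that were summed, had 422, 454, 248 and 358 CPM in members and 49.6, 52.9, 44.3 and 32.6 CPM in the other cells. Trib3 averaged 263 and 34.1 CPM and Chac1 261 and 40.2 CPM, members first. In the other cells Control 2 was the lowest library for 8 of the 10 genes, Fgf21 and Cth being the exceptions.

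**Figure D2:**
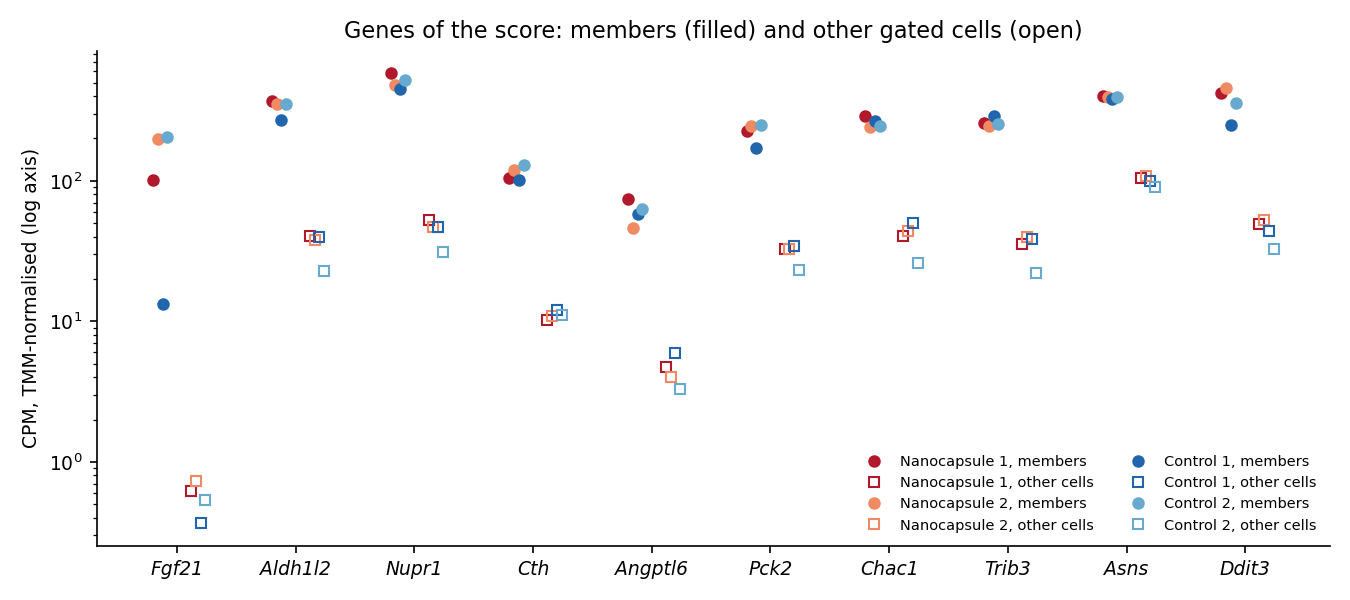
CPM (TMM-normalised, log axis) of the 10 score genes in each library; filled circles are members and open squares the other cells of the same library. Fgf21 has the widest spread among members, from 13.2 CPM in Control 1 to 203 CPM in Control 2, while Asns stays between 385 and 398 CPM.

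Correlations of score genes across the 200 members describe cells that were chosen by the sum of these genes, which by itself lowers them, and that share 4 libraries. Spearman's rho was 0.397 for Fgf21 with Pck2 and 0.362 for Nupr1 with Pck2. It was near 0 or below for Fgf21 with Chac1 (-0.042), Trib3 (-0.094) and Asns (-0.059), and -0.214 for Angptl6 with Asns. Fgf21 also followed depth, with a rho of 0.358 against log10 UMIs per cell.

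Depth bears on these levels. The matrices held 98943390 to 140491491 UMIs per library, and the median member had 49100, 80788.5, 39202 and 82385.5 UMIs, against 61255, 89931.5, 38533.5 and 80461 UMIs in the other cells of the same libraries. Mitochondrial shares were alike, with medians of 2.44 to 3.15% in members and 2.22 to 2.98% in the other cells. The pigment share of the gate had medians of 0.642%, 0.702%, 1.16% and 0.598% in members, against 0.946%, 0.977%, 1.02% and 0.949% in the other cells, so Control 1 was the library where members were not lower. Of 6658 gated cells, 42 shared their barcode with a gated cell of another library, and 1 member was among them. No doublet caller was run.

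Genes outside the score were compared between members and other cells on UMI sums per library, with the library as a block, by edgeR's quasi-likelihood test with Benjamini-Hochberg adjustment at 0.05 (8 sums, n = 4 libraries). Of 15668 genes tested, 14.3% passed as higher in members and 17.8% as lower, 2239 and 2785 genes, or 32.1% in either direction. Fold changes are log2, members over other cells, with the standard error (SE). These genes were measured in the cells that the score picked, so a gene that varies with the score from cell to cell differs here by the choice of cells.

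Genes on a list of other ATF4 and integrated stress targets were higher almost throughout. Of 28 tested genes 27 passed as higher and 0 as lower, against 14.3% of all genes. Their median log2 fold was 1.59, beside -0.03 over all genes tested. The exception was Lamp3, with 0.183 and 0.0595 CPM in members and other cells. The list was drawn up with earlier results of these data known and shares its pathway with the score. Atf4 itself had 651, 808, 475 and 748.5 CPM in members, against 229, 250.4, 214 and 200.3 CPM in the other cells (log2 fold 1.57 ± 0.11 SE, adjusted p = 7.46e-06). Its partner Cebpb had 328, 297, 279 and 306 CPM in members, against 36.0, 36.5, 36.5 and 22.9 CPM in the other cells (log2 fold 3.22 ± 0.13, adjusted p = 3.42e-08). No library overlapped between classes for either gene. Atf5, a further factor translated under eIF2 phosphorylation, had 177, 142, 181 and 204 CPM in members and 21.5, 20.4, 28.4 and 17.4 CPM in the other cells (log2 fold 3.02). Ppp1r15a encodes GADD34, which guides the phosphatase that reverses eIF2 phosphorylation, and was higher by a log2 fold of 2.95 ± 0.14. Atf3 was higher by 2.16 ± 0.31 on the log2 scale (adjusted p = 0.0117), with 61.8 CPM in members of Control 1 and 364 CPM in those of Nanocapsule 2. Vldlr (2.65), Gpt2 (1.99) and Sesn2 (1.60) were further members of the list that rose. Gdf15 (2.56) passed too, at averages of only 5.74 and 0.890 CPM in members and other cells. In Control 1 it was lower in members, with 0.442 CPM against 0.699 CPM.

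Enzymes of serine, glycine and folate metabolism moved in opposite directions, with 9 of 18 tested genes higher and 8 lower (of all genes 14.3% and 17.8%), and a median log2 fold of 0.11. Psph, the last step of serine synthesis, had 293, 292, 347 and 297 CPM in members, against 64.9, 71.8, 73.4 and 66.3 CPM in the other cells (log2 fold 2.15 ± 0.08, adjusted p = 5.94e-12). Pycr1, which makes proline in mitochondria, had 86.1, 60.5, 66.7 and 72.0 CPM in members and 8.83, 6.67, 9.49 and 5.72 CPM in the other cells (log2 fold 3.24 ± 0.13, adjusted p = 3.45e-11). Aldh18a1 (1.62), Phgdh (1.24), Mthfd2 (1.18), Shmt2 (1.01) and Psat1 (0.98) rose with them, and Mthfd2 and Shmt2 are the mitochondrial folate enzymes. The cytosolic enzyme Shmt1 fell, with 2.72, 7.45, 10.2 and 2.80 CPM in members, against 14.9, 17.3, 17.8 and 21.4 CPM in the other cells (log2 fold -1.66 ± 0.31, adjusted p = 0.00474). Tyms (-1.01) and Mthfd1 (-0.90), which serve nucleotide synthesis in the cytosol, and the cytosolic Aldh1l1 (-0.97) fell as well.

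Aminoacyl-tRNA synthetases load amino acids onto tRNA, and 15 of 20 rose while 1 fell (of all genes 14.3% and 17.8%), with a median log2 fold of 0.95. Lars (leucine) had 189, 177, 141 and 184 CPM in members, against 61.4, 63.9, 60.4 and 57.7 CPM in the other cells (log2 fold 1.502 ± 0.09, adjusted p = 1.70e-09). Sars (serine, 1.48), Gars (glycine, 1.34), Tars (threonine, 1.24) and Eprs (glutamate and proline, 1.21) were next. Nars (asparagine, 1.11) rose too and is also on the ATF4 list. Kars (lysine) was the one that fell, by 0.28 on the log2 scale, though its call was lost in 7 alternative analyses and without 3 of the 4 libraries taken singly.

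Of 15 amino acid transporters 9 rose and 0 fell (of all genes 14.3% and 17.8%), with a median log2 fold of 0.85. The glycine transporter Slc6a9 had 29.4, 33.4, 29.1 and 33.1 CPM in members, against 4.24, 4.51, 4.39 and 3.28 CPM in the other cells (log2 fold 2.94 ± 0.15, adjusted p = 1.42e-10). Slc7a11, the cystine-binding chain of the cystine-glutamate exchanger, had 115, 116, 76.8 and 104 CPM in members, against 15.5, 19.7, 14.0 and 10.7 CPM in the other cells (log2 fold 2.80 ± 0.13). Slc1a4 (1.95), Slc1a5 (1.37) and Slc3a2 (1.07) also rose, and Slc38a1 did not pass (0.03). Genes of transsulfuration and glutathione apart from Cth and Chac1 did not share this direction, with 2 of 14 higher, near the 14.3% of all genes, and 5 lower, beside 17.8%. Gpx1, a peroxidase that uses glutathione, had 319, 363, 502 and 412 CPM in members, against 661, 654, 754 and 746 CPM in the other cells (log2 fold -0.84 ± 0.07). Cbs, which stands before Cth in the pathway, was at 1.87 and 0.831 CPM on average in members and other cells, and its call (adjusted p = 0.0493) was lost without either Nanocapsule library or without Control 2.

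**Figure D3:**
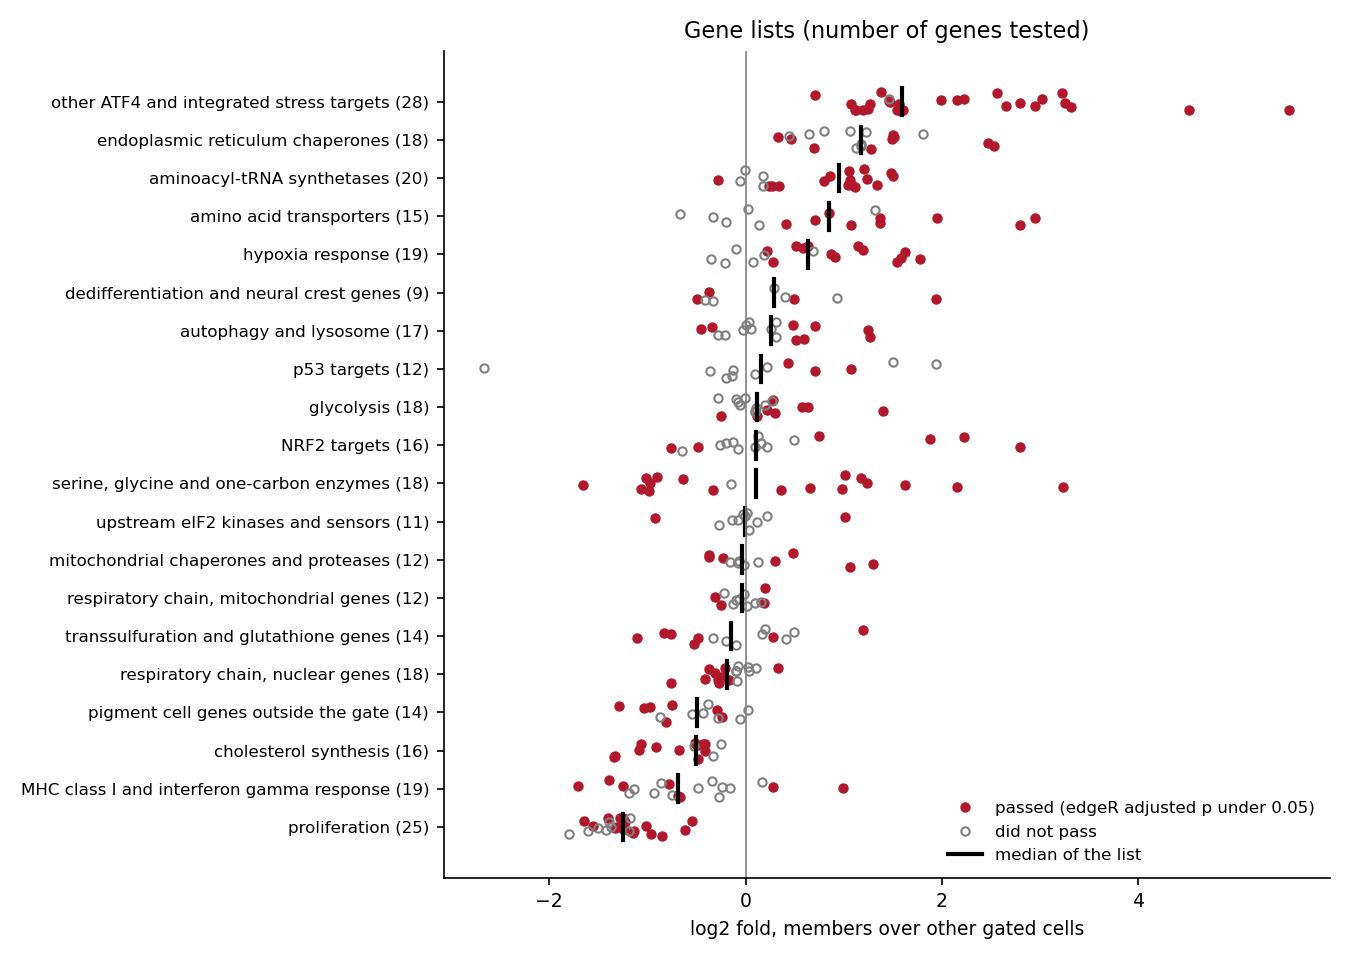
log2 fold of members over the other cells for each tested gene of 20 gene lists, with the number of genes tested in brackets; filled points passed edgeR's test, open points did not, and the bar is the median of the list. The ATF4 target list lies to the right with 27 of 28 genes passing, and the proliferation list to the left with 17 of 25.

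Upstream of ATF4, few transcripts differed, beside 32.1% of all genes in either direction. Of 11 eIF2 kinases and sensors, Eif2ak3 (PERK, the kinase of endoplasmic reticulum stress) passed as higher and Eif2ak2 (PKR, the kinase activated by double-stranded RNA) as lower. Eif2ak3 had 40.8, 60.5, 34.4 and 86.8 CPM in members, against 27.3, 26.9, 25.3 and 27.6 CPM in the other cells (log2 fold 1.02 ± 0.21, adjusted p = 0.00865), and without Nanocapsule 2 its call was lost. Eif2ak2 averaged 16.0 CPM in members and 30.2 CPM in the other cells (log2 fold -0.93 ± 0.13). The amino acid sensor Eif2ak4 (GCN2) had a log2 fold of -0.28 ± 0.12 and the haem-regulated Eif2ak1 (HRI) of -0.01 ± 0.12, and neither passed. Transcript levels do not measure the activity of these kinases. Of 10 receptors and relatives of FGF21, 5 had enough UMIs to be tested. Klb, the gene of beta-Klotho, was not among them. None of the 5 passed: Fgfr2 averaged 34.9 and 37.0 CPM in members and other cells, Fgfr1 0.508 and 0.884 CPM.

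Chaperones and quality control genes of the endoplasmic reticulum had a median log2 fold of 1.17, and 9 of 18 rose, beside 14.3% of all genes. Herpud1, which takes part in the removal of misfolded proteins, had 471.5, 486, 336 and 462 CPM in members, against 78.8, 82.9, 78.2 and 62.8 CPM in the other cells (log2 fold 2.53 ± 0.11, adjusted p = 1.53e-08). Dnajb9 (2.47), Xbp1 (1.51) and Sel1l (1.497) rose too. The main chaperone Hspa5 (BiP) had 2205, 2833, 706 and 2333 CPM in members, against 506, 526, 469 and 584 CPM in the other cells, a log2 fold of 1.80 ± 0.41 that did not pass (adjusted p = 0.0569). Control 1 was the library with the small difference, for Hspa5 as for Dnajb9 and Hsp90b1, and its members had the lowest Fgf21. Small differences in Control 1 were not particular to these genes. All score genes but Trib3 and Asns had their smallest ratio of members to other cells there. The median score of members was lowest there too, at 21.65. Without Control 1 all 18 genes of the endoplasmic reticulum list passed as higher, and by DESeq2 18 passed as well. Of 12 mitochondrial chaperones and proteases 4 rose and 3 fell (of all genes 14.3% and 17.8%). Hspa9 (mortalin) had 654, 712, 594 and 601 CPM in members, against 263, 266, 269 and 241 CPM in the other cells (log2 fold 1.30 ± 0.07), and Hspd1 fell by 0.37.

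Genes induced by lack of oxygen were higher in 13 of 19 cases and lower in 0 (of all genes 14.3% and 17.8%), with a median log2 fold of 0.63. Ero1l, an oxidase of the endoplasmic reticulum, had 2284, 1900.0, 899 and 909 CPM in members, against 543, 448, 471 and 226 CPM in the other cells (log2 fold 1.78 ± 0.28, adjusted p = 0.0210), and its call was lost without Nanocapsule 2 or without Control 2. Ndrg1 (1.59), Ddit4 (1.55) and Vegfa (1.20) are on both this list and the ATF4 list. Over members with an Fgf21 UMI the count was 7. Over all members, 6 genes of the list did not pass, among them Ldha (-0.10) and Pdk1 (0.19). Among those that rose were Ankrd37 (1.14), P4ha1 (0.91), Bnip3 (0.59), Car9 (0.52) and Pgk1 (0.22). Glycolysis genes were mixed, with 7 of 18 higher and 1 lower (of all genes 14.3% and 17.8%).

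Of 16 NRF2 targets, genes of the oxidative stress response, 4 rose and 2 fell (of all genes 14.3% and 17.8%). Among those that rose, Hmox1 and Slc7a11 are also on the ATF4 list. Hmox1, which degrades haem, had 540, 616, 273 and 242 CPM in members, against 123, 124, 58.1 and 52.2 CPM in the other cells (log2 fold 2.22 ± 0.08, adjusted p = 4.01e-12). Its level was higher in both Nanocapsule libraries in either class, while the ratio of members to other cells was alike in all 4 libraries. Of 12 p53 targets 3 rose, beside 14.3% of all genes. They were Bbc3 (1.07), Trp53inp1 (0.71) and Mdm2 (0.43), of which Bbc3 and Trp53inp1 are also on the ATF4 list. The call for Trp53inp1 was lost without Nanocapsule 1 or without Control 2, and that for Mdm2 without Nanocapsule 1 or without Nanocapsule 2. Of 17 autophagy and lysosome genes 6 rose and 2 fell (of all genes 14.3% and 17.8%). The autophagy receptor Sqstm1, also on the ATF4 list, averaged 1516 CPM in members and 636 CPM in the other cells (log2 fold 1.25 ± 0.06).

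Proliferation genes were lower in members: 17 of 25 passed as lower and 0 as higher, against 17.8% of all genes, with a median log2 fold of -1.25, and 24 were lower in all 4 libraries. Mcm6, part of the replicative helicase, had 29.4, 70.5, 50.3 and 35.0 CPM in members, against 112, 126, 111 and 127 CPM in the other cells (log2 fold -1.40 ± 0.20, adjusted p = 0.00240). Plk1 (-1.56), Aurka (-1.33) and Ccna2 (-1.64) fell, and Mki67 did not pass (log2 fold -1.42 ± 0.43). The differences were smallest in Control 1 for Plk1, Aurka and Ccna2, and calls for Plk1 and Ccna2 were lost without Nanocapsule 2 or without Control 2.

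Cholesterol synthesis genes fell in 13 of 16 cases and rose in 0 (of all genes 17.8% and 14.3%), with a median log2 fold of -0.50. Idi1 had 27.2, 25.3, 21.2 and 19.6 CPM in members, against 51.0, 56.6, 54.6 and 72.2 CPM in the other cells (log2 fold -1.33 ± 0.14, adjusted p = 4.41e-06). Dhcr7 (-1.34) and Hmgcs1 (-1.07) fell with it, the call for Hmgcs1 being lost without Nanocapsule 2 or without Control 1. The count was 8 without Control 1 and 7 over members with no Fgf21 UMI. Acat2, a cytosolic enzyme that starts this pathway from acetyl-CoA, headed the largest falls among genes with at least 20 CPM in the higher class, with 11.8, 6.10, 8.39 and 7.003 CPM in members, against 34.4, 39.98, 30.0 and 42.9 CPM in the other cells (log2 fold -2.23 ± 0.18).

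Pigment cell genes outside the gate fell in 7 of 14 cases and rose in 0 (of all genes 17.8% and 14.3%), with a median log2 fold of -0.49. Mitf, the master regulator of the melanocyte lineage, had 174, 117, 244 and 195 CPM in members, against 331, 297, 408 and 426 CPM in the other cells (log2 fold -1.04 ± 0.09, adjusted p = 4.70e-07). Sox10 (-0.75), Mc1r (-0.97) and Oca2 (-1.29) fell too. Of the 4 genes of the gate Mlana fell by 0.35, and Dct (-0.24), Pmel (-0.58) and Tyrp1 (-0.28) did not pass and were higher in members of Control 1 than in its other cells. Dct remained at 2586 to 4066 CPM in members, as the gate required in part. Of 9 genes of dedifferentiation and neural crest, 2 rose and 2 fell (of all genes 14.3% and 17.8%), among them Zeb1 (1.94) and Cd44 (-0.49). Zeb1 averaged only 2.99 CPM in members and 0.777 CPM in the other cells.

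Of 19 genes of antigen presentation by MHC class I and of the interferon gamma response, 2 rose and 6 fell (of all genes 14.3% and 17.8%). H2-K1, a class I heavy chain, had 165, 183, 91.0 and 91.3 CPM in members, against 93.6, 95.5, 56.2 and 31.6 CPM in the other cells (log2 fold 1.00 ± 0.12, adjusted p = 6.27e-05). The chemokine Cxcl10 (-1.39) and the immunoproteasome subunit Psmb8 (-1.70) fell, with their highest levels in Nanocapsule 2 in both classes. Psmb8 was low, with 0.906, 10.8, 0.442 and 0.0 CPM in members, against 8.84, 28.1, 0.541 and 1.53 CPM in the other cells. The count of falls was 13 over members with an Fgf21 UMI. Of 18 nuclear genes of the respiratory chain 1 rose and 10 fell, with a median log2 fold of -0.19, and of 12 mitochondrial ones 2 rose and 2 fell (of all genes 14.3% and 17.8%). The 2 that rose, mt-Co1 (0.20) and mt-Atp8 (0.19), each lost the call without Nanocapsule 1, without Nanocapsule 2 or without Control 2.

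Markers of other cell types were counted in members because free RNA or doublets can carry them. The 15 immune markers summed to 19.2, 42.5, 35.0 and 26.2 CPM (here the share of the class total, without TMM) in members, against 16.9, 28.6, 13.3 and 12.7 in the other cells, so they were higher in members of every library. Ptprc (0 by the gate), Cd3e, Cd3g, Nkg7 and C1qc were at 0 in members, and 0 of the 9 immune markers tested passed in either direction (4 of 9 had a positive log2 fold). Lyz2 stood at 16.8 CPM in members of Control 1 and at most 0.453 CPM in those of the other libraries, while Cd74 stood at 19.3 CPM in members of Control 2, against 0.891 CPM in its other cells, and at 38.6 CPM in members of Nanocapsule 2, against 18.2 CPM in its other cells. The 8 hepatocyte markers, listed because liver is a main source of FGF21, summed to 5.68, 3.13, 3.55 and 2.91 CPM in members and 4.21, 3.52, 3.93 and 3.86 in the other cells, with Alb at 0 in members. Fibroblast markers summed to 3.55 to 5.24 in members and 2.17 to 17.9 in the other cells, endothelial ones to 17.9 to 23.0 and 29.4 to 35.8, and erythroid ones to 1.57 to 3.55 and 1.93 to 19.1. Keratinocyte and adipocyte markers reached at most 0.872 and 0.533. The part of these transcripts in the differences was not tested beyond leaving out all cells with an immune marker UMI, after which 27 of the 28 ATF4 targets still passed as higher.

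Among all genes outside the score with at least 20 CPM in the higher class and the same direction in every library, the largest rise was that of Cdsn, a corneodesmosome protein of skin. It had 27.2, 39.98, 3.09 and 34.2 CPM in members, against 0.707, 0.679, 0.275 and 0.421 CPM in the other cells (log2 fold 5.54 ± 0.36, adjusted p = 1.37e-05). Akr1b7, an aldo-keto reductase, had 26.7, 19.0, 6.18 and 28.9 CPM in members and 0.807, 0.560, 0.366 and 0.582 CPM in the other cells (log2 fold 5.05 ± 0.25). Both were lowest in members of Control 1, as Fgf21 was. Among the 15 largest rises, Control 1 had the smallest ratio of members to other cells for all but Sh2d6 and Grb14. Tenm4, a teneurin adhesion protein, had 248, 148, 161 and 239 CPM in members, against 8.75, 8.33, 11.9 and 7.93 CPM in the other cells (log2 fold 4.42 ± 0.25, adjusted p = 0.000136). The other genes among the 15 largest rises were Sh2d6 (4.87), the ATP-gated channel P2rx3 (4.45), the signalling adaptor Grb14 (3.99), Hoxb9 (3.96), the retrieval receptor Kdelr3 (3.64), the calcitonin receptor-like Calcrl (3.28), Cyb5r2 (3.26), Fam129a (3.25), Pycr1, the exonuclease Isg20 (3.23), Cebpb and Steap1 (3.20). Of these 15 genes, Cdsn, Fam129a and Cebpb are also on the ATF4 list. Calls for Kdelr3 and Isg20 were lost without Nanocapsule 2, and that for Kdelr3 also without Nanocapsule 1.

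The 10 largest falls included Acat2, described above. Uhrf1, which maintains DNA methylation at replication, had 17.7, 44.1, 53.4 and 23.5 CPM in members, against 115, 124, 110 and 136 CPM in the other cells (log2 fold -1.86 ± 0.35, adjusted p = 0.0261), and its call was lost without Nanocapsule 2. Pimreg (-1.87), the spindle checkpoint kinase Bub1b (-1.72) and Lmnb1 (-1.72) belong to dividing cells. The sialyltransferase St3gal1 had the most even fall, with 5.44, 5.65, 7.06 and 5.88 CPM in members, against 22.3, 25.1, 28.5 and 27.6 CPM in the other cells (log2 fold -2.12 ± 0.16). The monoacylglycerol lipase Mgll (-2.05), the lipid transporter Abca12 (-1.82), Spsb4 (-1.73) and the protein kinase A subunit Prkar2b (-1.72) completed the group, and the call for Mgll was lost without Control 2.

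**Figure D4:**
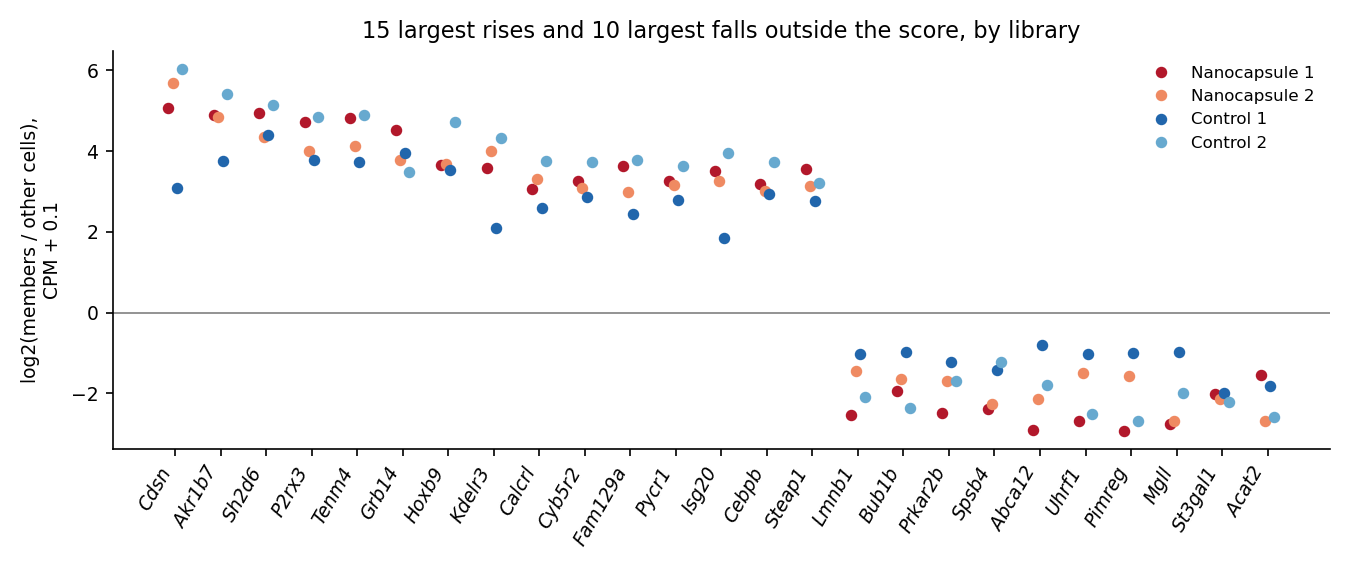
log2 ratio of members to other cells within each library (CPM + 0.1) for the 15 largest rises and 10 largest falls outside the score. All 4 libraries lie on the same side of 0 for every gene, which the choice of genes required. Control 1 is nearest to 0 for all rises but Sh2d6 and Grb14 and for all falls but Acat2 and Spsb4.

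Members with and without an Fgf21 UMI were set side by side as a description, since depth differs between them, with a median of 77060 UMIs in the 94 with one and 46008 in those without. Akr1b7 averaged 27.6 CPM with Fgf21 and 10.4 CPM without, Cdsn 38.0 and 7.22 CPM, Steap1 72.2 and 27.9 CPM, Kdelr3 159 and 76.6 CPM, and the lysosomal protease Ctsl 244 and 164 CPM. All 5 were higher with Fgf21 in 4 of 4 libraries, and so was the immune marker Cd74, with 24.6 and 5.78 CPM. The 15 immune markers summed to 24.7, 62.4, 13.2 and 27.0 CPM without TMM in members with Fgf21, against 11.6, 4.55, 41.8 and 24.4 CPM in those without, and their part in these differences was not tested. Slc2a1, the main glucose transporter, averaged 105 CPM with Fgf21 and 193 CPM without, Gpi1 913 and 1510 CPM, Ndrg1 104 and 175 CPM, and Vim 993 and 1465 CPM, lower with Fgf21 in every library. Of the stress genes, the averages with and without Fgf21 lay close for Trib3 (266 and 272 CPM), Nupr1 (523 and 504 CPM), Asns (394 and 411 CPM) and Slc7a11 (108 and 102 CPM). Cth (131 and 99.4 CPM) and Herpud1 (512 and 374 CPM) were higher with Fgf21 in 4 of 4 libraries, and Pck2 (249 and 190 CPM), Dnajb9 (121 and 74.6 CPM) and Fam129a (87.9 and 55.1 CPM) in 3 of 4. Compared with the other cells, 7 of the 18 glycolysis genes were lower and 2 higher in members with an Fgf21 UMI, while 0 were lower and 11 higher in members without one. Of all genes 17.3% were lower and 13.6% higher in the fit with an Fgf21 UMI, and 14.2% and 8.02% in the fit without one, and the difference between the subsets was not tested. For the ATF4 targets 26 genes passed as higher in either subset.

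The design compares tumours with and without nanocapsules, and the share of members was set out per library. Members made up 2.84% (95% Clopper-Pearson interval 2.07 to 3.81) of gated cells in Nanocapsule 1 and 5.77% (4.39 to 7.43) in Nanocapsule 2, against 1.88% (1.43 to 2.42) in Control 1 and 4.05% (2.93 to 5.44) in Control 2. The groups overlapped. The mean was 4.31% ± 2.07 in Nanocapsule and 2.96% ± 1.53 in Control libraries (SD, n = 2 each), a log2 ratio of 0.54 with p = 0.667 in a two-sided exact permutation test whose smallest possible p is 0.333. Without Nanocapsule 2 the log2 ratio was -0.12, without Control 1 it was 0.01, and with Nanocapsule 1 or Control 2 left out it was 0.96 and 1.09. The 2 libraries of a group lay further apart than the group means, and a difference of the size seen was not detectable with 2 libraries per group.

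Within members, Nanocapsule and Control libraries were compared on 4 sums. Of 10518 genes 0.0% passed edgeR's test at 0.05 (0 genes), while 588 (5.59%) had an unadjusted p under 0.05, and DESeq2 called 40. The gene with the smallest p was Hilpda, a lipid droplet protein, with 393 and 436 CPM in Nanocapsule members, against 99.8 and 130.4 CPM in Control members (log2 fold 1.84 ± 0.19, adjusted p = 0.0839). Adamts1 had 138 and 134 CPM in Nanocapsule members and 42.5 and 47.5 CPM in Control members, Itpk1 64.2 and 73.5 CPM and 21.5 and 21.6 CPM. Lcp1, an actin-bundling protein best known from leukocytes, had 40.1 and 28.2 CPM in Nanocapsule members and 3.58 and 5.34 CPM in Control members. The immune markers in these members, in the same order, summed to 19.2 and 42.5 and to 35.0 and 26.2 CPM without TMM, and their part in Lcp1 was not tested. Tnfrsf12a, the receptor for TWEAK, was the last of the 5, with 133.4 and 132.7 CPM against 50.1 and 54.8 CPM. None of the 5 overlapped between groups, nor did 18.1% of all genes that were higher and 17.6% that were lower. Of the score genes, which were not tested in members and are scaled over these 4 sums, Fgf21 had 102 and 198 CPM in Nanocapsule members, against 13.4 and 204 CPM in Control members, and Ddit3 424 and 450.3 CPM against 251 and 359 CPM.

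Over all gated cells, where treatment could be tested for the score genes as well, 0.0% of 16168 genes passed (0 genes), with 1232 (7.62%) at an unadjusted p under 0.05 and 97 called by DESeq2. Nupr1 had 65.8 and 68.7 CPM in Nanocapsule cells, against 54.1 and 51.4 CPM in Control cells (log2 fold 0.35 ± 0.07, adjusted p = 0.610). Ddit3 had 59.0 and 73.2 CPM, against 48.2 and 45.9 CPM (log2 fold 0.49 ± 0.11, adjusted p = 0.642). Aldh1l2 (0.34), Asns (0.19) and Pck2 (0.22) were also higher without overlap, which makes 5 of the 10, beside 19.8% of all genes. Fgf21 had 3.06 and 10.7 CPM in Nanocapsule cells, against 0.607 and 9.03 CPM in Control cells (log2 fold 0.54 ± 1.23), and the groups overlapped. The remaining genes, Trib3 (0.28), Chac1 (0.17), Cth (-0.03) and Angptl6 (-0.03), overlapped as well.

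Whether the difference between members and other cells itself depended on treatment was tested with an interaction term over the 8 sums. Of 15668 genes 9 passed (0.0574%), and 724 (4.62%) had an unadjusted p under 0.05. For all 9 the signed log2 ratio of members to other cells was higher in Nanocapsule libraries. In size it was smaller there for Pakap (0.23, against -0.71 in Control) and Cnn2 (0.19, against -0.91 in Control). Junb, an AP-1 transcription factor, had 152 and 132 CPM in Nanocapsule members, against 53.9 and 73.1 CPM in Control members. Its level in the other cells was 46.3 and 53.1 CPM in Nanocapsule and 66.8 and 60.8 CPM in Control libraries, so members stood above the other cells in both Nanocapsule libraries, below them in Control 1 and slightly above them in Control 2 (log2 difference of the differences 1.51 ± 0.21, adjusted p = 0.0153). Jun, its AP-1 partner, had 254 and 397 CPM in Nanocapsule members and 130 and 155 CPM in Control members (1.02 ± 0.17, adjusted p = 0.0190), and Nab2, a regulator of early growth response factors, 66.6 and 49.5 CPM and 18.5 and 15.7 CPM (1.36). Lcp1 (2.098), Cnn2 (1.12) and Pakap (0.96) were lower in members than in the other cells of both Control libraries. Adamts1 (1.13) was too, though in Control 2 by little, with 47.3 CPM in members and 48.4 CPM in the other cells. Fem1b (1.14) and Itpk1 (1.31) made up the rest. DESeq2 called 4 genes, of which 3 were among the 9.

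**Figure D5:**
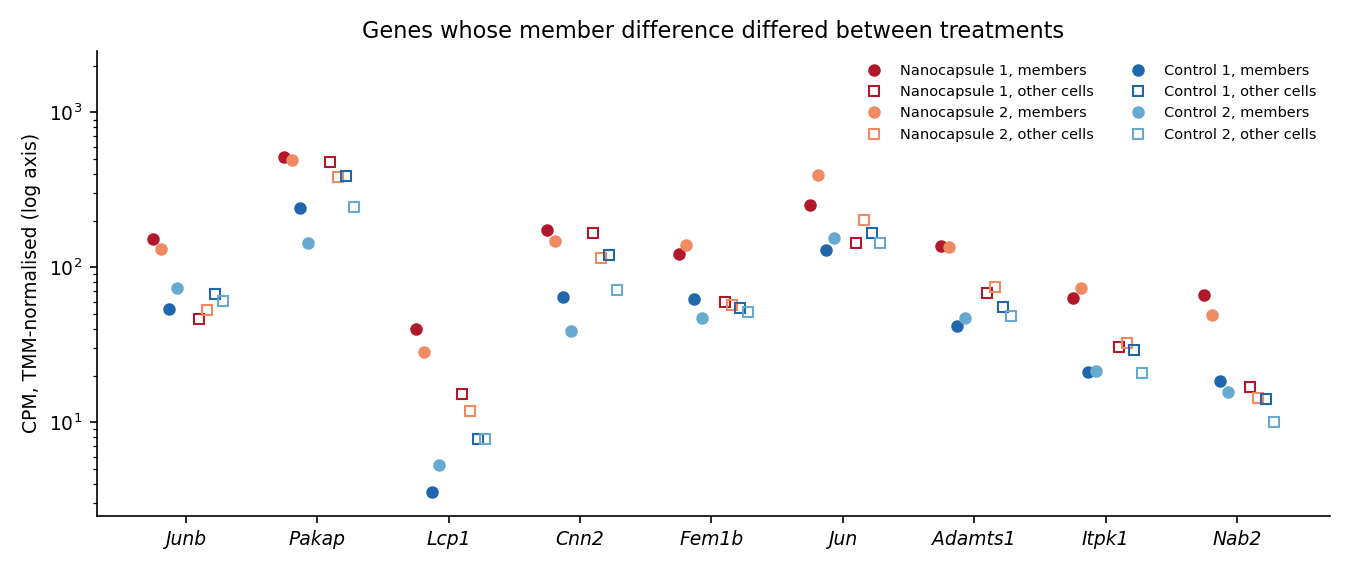
CPM (TMM-normalised, log axis) of the 9 genes whose difference between members (filled circles) and other cells (open squares) differed between Nanocapsule and Control libraries by edgeR. Nanocapsule members lie above Control members for every gene, as for Junb with 152 and 132 against 53.9 and 73.1 CPM.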

How the data were processed

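Single-cell RNA was measured in 2 Nanocapsule and 2 Control tumour libraries with 10x 3-prime v2 chemistry, per the labels' protocols. The authors deposited raw UMI counts of 32285 genes per library, aligned to mm10 per the submitters' processing notes. Those notes list Cell Ranger 2.1.1 and the file headers version 4, which leaves the version used uncertain. Rows that share a gene symbol were summed.

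The members and the gene and marker lists were chosen with earlier results of these data known. UMIs were summed per library and class in Python 3.11.15 and tested in R 4.3.3 with edgeR 4.0.16 (TMM, filterByExpr, robust quasi-likelihood test, Benjamini-Hochberg adjustment over all genes of a fit). Score genes stayed in the library sizes and out of the tested table, except for treatment over all gated cells. The SE was obtained from the log2 fold and edgeR's F (the root of F is the fold in SE units). Intervals (95%) and the limit set by 3 counts reflect counting error alone. Scripts were tested on simulated data.

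Named genes are the 15 largest rises and 10 largest falls past the threshold with 1 direction in all 4 libraries and at least 20 CPM in the higher class, the score genes, and up to 4 passing genes per list by size of fold, or the 2 most abundant. For treatment, where fewer than 5 genes passed, the 5 with the smallest p are named. Other list genes, and those set out by Fgf21 detection, were chosen after their values were seen. A few genes that the rule names are not reported here. Alternatives were DESeq2 1.42.0, other factors, filters, gates and thresholds, no library block, thinning to 8000 UMIs, other choices of members and leaving out each library. The splits of members by an Fgf21 UMI, leaving out cells with an immune marker UMI and weighting libraries equally in the score threshold were chosen after seeing the data. The counts of the libraries of a group were not copies: 43.9% of genes in the Nanocapsule and 55.2% in the Control pair differed at a chi-square p under 0.05. This test on summed UMIs cannot tell whether the libraries came from separate animals.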

Additional observations from a re-analysis of the deposited data

Results flagged for a closer look

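The difference between members and other cells differed between treatments for 9 genes by edgeR's interaction test. The log2 difference (Nanocapsule minus Control) was 1.51 for Junb, 0.96 for Pakap, 2.1 for Lcp1, 1.12 for Cnn2, 1.14 for Fem1b, 1.02 for Jun, 1.13 for Adamts1, 1.31 for Itpk1 and 1.36 for Nab2, with adjusted p from 0.0153 to 0.0336 and 2 libraries per group. Without Nanocapsule 2 the calls for Pakap, Cnn2, Fem1b, Jun and Itpk1 were lost, and without Nanocapsule 1 those for Adamts1 and Nab2.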

How the results depend on the processing

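Members against other cells gave 5024 calls, and 2123 with each cell thinned to 8000 UMIs, of which 2003 were among the 5024. Leaving out 1 library gave 3442 to 5623 calls, and 2917 genes were called in each of these 4 fits. DESeq2, other factors, no filter and other choices of members stayed within 1.5 times. Of 102 called named genes, 21 lost their call without some library.

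Within members, treatment gave 0 calls, against 40 by DESeq2, 179 with no filter on low counts and 0 to 494 with 1 library left out, the highest without Control 2. In all gated cells it gave 0, against 97 by DESeq2, 10 with no filter, 472 with the replicate block and 22 to 167 with 1 library left out. The interaction gave 9, against 4 by DESeq2, 58 with no filter and 16 to 598 with 1 library left out, the highest without Control 2. With 1 library in a group, it is assumed to vary like the others. The replicate block gave 0 calls within members. The replicate numbers are not said to mark shared animals or days. Deviations of same-numbered libraries correlated by 0.106 in members and 0.628 in all gated cells, over 2 pairs, so the numbers were not taken as pairs. The cause of these changes was not tested.

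The log2 ratio of member shares was -0.12 without Nanocapsule 2, the lowest of -0.12 to 1.09 over the libraries left out, and 0.28 to 0.99 under the other settings. Reversed signs, the cause of which was not tested, occurred with thinning for Fgfr2 (0.318), Kit (0.0535), Fcer1g (0.0662) and Apoa2 (0.0575), at the top 5% for Fgfr2 (0.0122) and Apoa2 (0.117), by the thinned score for Apoa2 (0.0199), and over members with an Fgf21 UMI for Gpi1 (-0.064). With 1 library left out Apoa2 ranged from -0.239 to 0.0039. For treatment over all gated cells the range was -0.639 to 3.502 for Fgf21, -0.24 to 0.14 for Cth, -0.15 to 0.11 for Angptl6 and -0.12 to 0.53 for Chac1. Depth per cell limits the detection of Fgf21, and 42 to 59 members per library limit low genes.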
